A study of Mus musculus with 6 samples.

Results

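The microRNA precursor genes are the genes whose own symbol names a microRNA hairpin, such as Mir155 or Mirlet7a-1. An array row counted as a member when the platform annotation gave it exactly 1 symbol, and that symbol began with Mir and a digit or with Mirlet7. This left 298 rows for 296 precursors, with Mir713 on 3 rows, out of 28815 rows and 19935 genes with a symbol of their own. A further 61 rows named a precursor among several symbols and were left out, as were 4 host transcripts (Mir100hg, Mir17hg, Mir670hg and Mir99ahg). The samples were CD4+CD62L- T cells, called resting by the submitters, sorted from mouse lymph nodes without any treatment. Dicer KO cells came from CD4Cre-positive Dicer lox/lox mice, and Dicer WT cells came from CD4Cre-negative Dicer lox/lox mice, so both groups carried the floxed allele and only Dicer KO mice carried Cre under the Cd4 promoter. There were 3 Dicer KO and 3 Dicer WT samples, which the series calls biological replicates, each hybridised to 1 Affymetrix MoGene 1.0 ST array. The sources used here give no strain, age, sex or floxed exons.

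A microRNA begins as a hairpin inside a longer primary transcript. Drosha with Dgcr8 cuts the hairpin out in the nucleus, Xpo5 exports it, and Dicer trims it to a short duplex, 1 strand of which is loaded into an Argonaute protein. Bases 2 to 8 of the loaded strand, the seed, pair with target messages. Precursors that lie close together are often cut from 1 primary transcript, and others sit in introns of protein-coding genes. In CD4 T cells, Dicer and its products are known for restraining effector cytokine production and for supporting proliferation, survival and regulatory T cells. The arrays measured total RNA, and the files do not separate primary transcript, hairpin and mature microRNA within a row's signal.

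Each value below is a log value, read as log2, with the row's median over the 6 arrays already taken away by the authors. The table therefore holds differences between arrays and, apart from a coarse class read from the stored digits, no levels: precursors cannot be ranked by abundance, and the labelled cell type cannot be checked by the level of its markers. The arrays' medians over all rows lay between -0.0088 and 0.0063. Of the listed CD4 T cell markers, 6 were measured; Cd4 was called higher and Cd5 was called lower in Dicer KO. The 7 measured B cell markers had a median of 0.06, 0.05 and 0.08 on the Dicer KO arrays, against -0.56, 0.02 and -0.22 on the Dicer WT arrays, and none of the 7 passed the test. All 7 differences were positive, the largest that of Ms4a1 (0.68 ± 0.18, limma adjusted p = 0.0717). The arrays of 3 lay apart on the higher side, as did those of 13.5% of all genes. The 2 CD8 T cell markers, Cd8a at -0.09 and Cd8b1 at -0.26, did not pass the test either. Of 8 myeloid markers 1 was called, Lyz2 of macrophages and neutrophils, higher in Dicer KO (0.69 ± 0.12, limma adjusted p = 0.0165). The myeloid list did not move together: 3 differences were positive and 5 negative, with Cd68 at -0.25. Of 4 stromal and endothelial markers 1 was called, Pecam1, higher in Dicer KO (0.75 ± 0.07, limma adjusted p = 0.00158). There 2 differences were positive and 2 negative, with the other endothelial marker, Cdh5, at -0.05. The part of these markers in the precursor values was not tested. In bulk RNA, fewer cells of a type and less RNA per cell cannot be told apart.

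The mature sequences of the precursors that passed the test are printed first, because the results turn on these loci. RefSeq (GRCm38.p6) gave mature sequences for 270 of the 296 precursors. Capitals mark the seed, and each sequence runs 5′ to 3′.
miR-128-3p: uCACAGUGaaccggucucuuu
miR-128-2-5p: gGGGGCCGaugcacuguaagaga
miR-692: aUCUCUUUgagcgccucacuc
miR-688: uCGCAGGCgacuacuuauuc
miR-92b-3p: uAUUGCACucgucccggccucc
miR-149-5p: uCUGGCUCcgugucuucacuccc
miR-149-3p: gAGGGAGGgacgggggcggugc
miR-134-5p: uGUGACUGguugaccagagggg
In Mir128-2, miR-128-3p lies at chr9:112118644-112118664 on the minus strand, inside the gene Arpp21. Mir149 carries miR-149-5p at chr1:92850381-92850403 on the plus strand, and Mir134 carries miR-134-5p at chr12:109734145-109734166 on the plus strand.

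The second set holds 1 mature sequence for each family that is best known in T cells, so that the family results further on can be read against their seeds.
let-7a-5p: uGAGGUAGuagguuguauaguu
miR-17-5p: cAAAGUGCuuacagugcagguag
miR-181a-5p: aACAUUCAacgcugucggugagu
miR-29a-3p: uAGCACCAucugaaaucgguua
miR-16-5p: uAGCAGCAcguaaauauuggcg
miR-146a-5p: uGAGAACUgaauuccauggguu
miR-155-5p: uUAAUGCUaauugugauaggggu
miR-142a-3p: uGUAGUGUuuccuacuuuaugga

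Loss of Dicer went with few changes at precursor rows. Of the 296 precursors, 6 were lower and 0 were higher in Dicer KO at an adjusted p under 0.05 (limma, Benjamini-Hochberg adjustment over all 19935 genes). That is 2.03% of precursors, against 8.73% of all genes called in either direction (2.79% lower and 5.94% higher). Precursor rows were in the higher of the coarse level classes less often, 6.04% of them against 17.6% of all rows, and the part of level in these shares was not tested. At an unadjusted p under 0.05, 28 precursors were lower and 7 were higher, which makes 11.8% of precursors against 21.5% of all genes. The Dicer KO and Dicer WT arrays did not overlap for 47 precursors on the lower side and 10 on the higher side. These are 15.9% and 3.38% of precursors, against 12.7% and 13.5% of all genes. The share of precursors whose arrays lay apart on the lower side was thus near that of all genes, and the share on the higher side was smaller. The median difference (Dicer KO minus Dicer WT, log2) over the precursors was -0.029, with 204 negative and 92 positive, against -0.011 over all genes. The count of 6 was not kept with some single arrays left out: it was 1 without Dicer KO 2 and 3 without Dicer WT 1. The calls over all genes fell in these fits too, from 1741 to 729 without Dicer KO 2 and to 849 without Dicer WT 1.

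Mir128-2 had the largest fall. Its log2 values were -0.17, -0.31 and -0.21 in Dicer KO, against 0.29, 0.17 and 0.27 in Dicer WT. Every Dicer KO array lay below every Dicer WT array, and the difference was -0.47 ± 0.06 (SE, limma adjusted p = 0.00506), a 1.38-fold lower signal if the log base is 2. It was the only precursor called with each of the 6 arrays left out in turn, at adjusted p between 0.0129 and 0.0286 by limma. miR-128 is best known as an abundant microRNA of neurons.

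Mir692-1 and Mir688 came next by p. Mir692-1 read -0.10, -0.28 and -0.26 in Dicer KO, against 0.23, 0.10 and 0.24 in Dicer WT. The groups lay apart, by -0.40 ± 0.07 (SE, limma adjusted p = 0.0145), and the call was lost without Dicer KO 2 (0.0683) or without Dicer WT 1 (0.064). The rows of its sister loci Mir692-2 and Mir692-3 also name Ftl1, the ferritin light chain gene, and the call of Mir692-1 is uncertain, since shared sequence was not tested. Mir688 read -0.13, -0.15 and -0.15 in Dicer KO, against 0.34, 0.16 and 0.13 in Dicer WT. Its Dicer KO arrays lay close together and below all Dicer WT arrays (-0.36 ± 0.07, SE, limma adjusted p = 0.0182), and the call was lost without Dicer KO 2 (0.0791).

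Mir92b, Mir149 and Mir134 passed the test more narrowly. Mir92b, whose product shares its seed with miR-92a and miR-25, read -0.08, -0.20 and -0.23 in Dicer KO, against 0.09, 0.13 and 0.08 in Dicer WT (-0.27 ± 0.06, SE, limma adjusted p = 0.0278). Mir149 read -0.11, -0.32 and -0.15 in Dicer KO, against 0.11, 0.21 and 0.46 in Dicer WT, the highest being Dicer WT 3 (-0.45 ± 0.10, SE, limma adjusted p = 0.0384). In all 3 precursors the groups lay apart. Mir134, which in neurons restrains the growth of dendritic spines, read -0.08, -0.14 and -0.11 in Dicer KO, against 0.34, 0.08 and 0.21 in Dicer WT (-0.31 ± 0.07, SE, limma adjusted p = 0.0413). Each of these calls was kept in only 1 of the 6 fits that left out an array: Mir92b without Dicer KO 1 (0.0266), Mir149 without Dicer WT 1 (0.0489) and Mir134 without Dicer WT 2 (0.0299). With another array left out, the adjusted p reached 0.113 for Mir92b, 0.137 for Mir149 and 0.147 for Mir134.

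Just outside the threshold stood Mir194-1 on the higher side and Mir212 and Mir129-1 on the lower. Mir194-1, from a locus known in liver and gut, read 0.04, 0.13 and 0.16 in Dicer KO, against -0.23, -0.04 and -0.23 in Dicer WT, with no overlap (0.28 ± 0.07, SE, limma adjusted p = 0.0509), and 7 of 13 alternatives called it higher. Mir212 differed by -0.30 ± 0.08 (limma adjusted p = 0.06), while its neighbour Mir132 differed by -0.02 ± 0.07. Mir129-1 differed by -0.39 ± 0.10 (limma adjusted p = 0.0622). Mir6516 had 1 of the 5 largest negative differences among precursors whose arrays lay apart, -0.45 ± 0.17 (limma adjusted p = 0.18), with Dicer WT 3 alone at 0.67. On the positive side the 5 largest such differences were those of Mir7-1 (0.36), Mir194-1 (0.28), Mir200a (0.19), Mir383 (0.16) and Mir499 (0.15), and none of these passed the test. Mir7-1, whose product is known from brain and endocrine pancreas and pairs with the circular RNA Cdr1as, read 0.16, 0.06 and 0.21 in Dicer KO, against -0.12, -0.06 and -0.47 in Dicer WT (limma adjusted p = 0.0974).

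**Figure D1:**
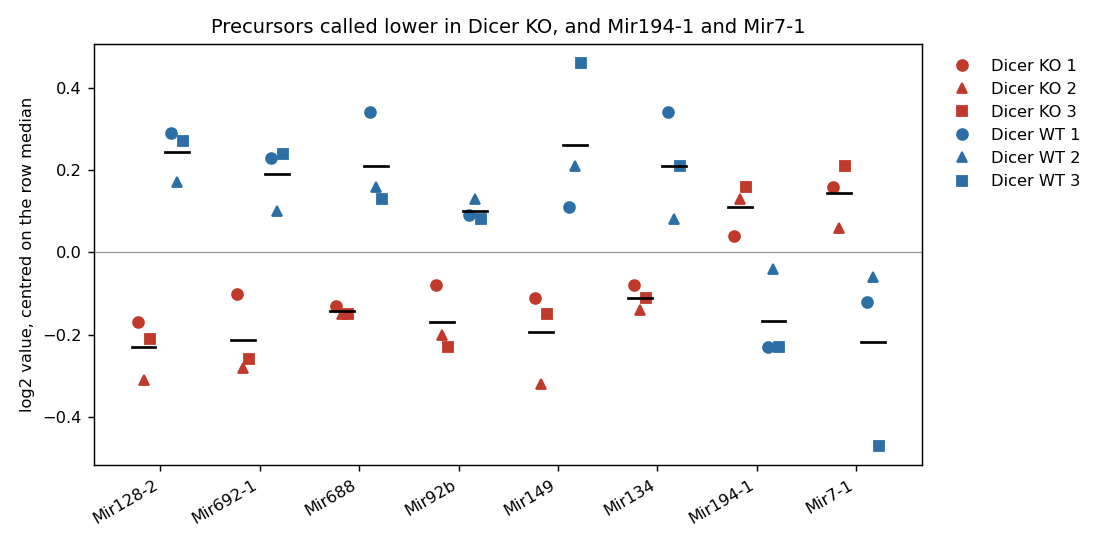
Row-centred log2 value (vertical axis) of 8 precursors on the 3 Dicer KO arrays (red) and the 3 Dicer WT arrays (blue); each symbol is 1 array and black bars are group means. Mir128-2, Mir692-1, Mir688, Mir92b, Mir149 and Mir134 have all Dicer KO arrays below all Dicer WT arrays, and Mir194-1 and Mir7-1 have them above without passing the test.

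The families best known in T cells held no called member. With 2.03% of all precursors called, that count is near this share and is no result about these families. The let-7 family, which promotes differentiation and is held back by Lin28 proteins, had 10 measured precursors with a median difference of -0.024, 5 positive and 5 negative. Its lowest p belonged to Mir98, which read -0.08, -0.13 and -0.03 in Dicer KO, against 0.12, 0.07 and 0.03 in Dicer WT (-0.16 ± 0.05, SE, limma adjusted p = 0.123). These arrays did not overlap. The lowest let-7 difference was that of Mirlet7d (-0.25 ± 0.11), and its run partners Mirlet7a-1 and Mirlet7f-1 stood at -0.05 and 0.00. RefSeq gave 9 of the 10 the seed GAGGUAG. For the remaining member, Mirlet7a-2, the sequences used here held no mature strand with this seed, which need not mean that its seed differs.

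The 17-92 cluster, which drives lymphocyte growth and survival, had 5 measured members, all with a negative difference (median -0.077). That shared sign rested on Dicer WT 1: without it 4 of the 5 were positive, with Mir18 at 0.14, Mir20a at 0.09, Mir19b-1 at 0.04 and Mir19a at 0.00, Mir17 stood at -0.16, and the median was 0.036. Mir17 read -0.23, -0.14 and -0.01 in Dicer KO, against 0.33, 0.07 and 0.01 in Dicer WT, without overlap but with a limma adjusted p of 0.181 (-0.26 ± 0.10, SE). Mir18, Mir19a, Mir20a and Mir19b-1 lay between -0.08 and -0.03. The paralogous Mir106a to Mir363 cluster on the X chromosome had 5 measured members with a median of -0.008 and a range of -0.03 to 0.04. The Mir106b to Mir25 cluster, cut from an intron of the replication helicase gene Mcm7, had Mir93 at -0.18 ± 0.08, Mir25 at -0.14 ± 0.05 (limma adjusted p = 0.153, its lowest) and Mir106b at 0.04 ± 0.05. Over the 13 members of these 3 clusters, 10 differences were negative and the median was -0.035.

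The miR-181 family, which lowers the T cell receptor's signalling threshold through phosphatases, had 6 members between -0.09 (Mir181a-2) and 0.12 (Mir181b-2). Mir181b-2 read 0.10, 0.04 and 0.02 in Dicer KO, against -0.02, -0.06 and -0.13 in Dicer WT, apart but not past the test (limma adjusted p = 0.252). Mir181a-2 lies in the same run and had the opposite sign. Of the 29 family, which restrains interferon gamma output, Mir29a stood at 0.06 ± 0.06 and Mir29b-1 at -0.04 ± 0.05. Mir146, which dampens NF-kappa-B signalling through Traf6 and Irak1, read -0.02, -0.04 and -0.04 in Dicer KO, against 0.03, 0.02 and 0.04 in Dicer WT. These groups did not overlap, yet the difference was only -0.06 ± 0.04 (limma adjusted p = 0.522). Mir146b differed by -0.11 ± 0.07 (0.471). Mir155, whose product targets Socs1 and is induced on T cell activation, read 0.02, -0.05 and 0.05 in Dicer KO, against -0.02, -0.03 and 0.16 in Dicer WT (-0.03 ± 0.07, limma adjusted p = 0.882). Its arrays overlapped.

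The remaining families of lymphocyte biology gave values of similar size. Mir27a, of the 23/27/24 cluster on chromosome 8, differed by 0.20 ± 0.08 (limma adjusted p = 0.178), whereas Mir23a and Mir24-2 of the same run both stood at -0.02. In the 30 family the 6 members ranged from -0.11 (Mir30d) to 0.09 (Mir30a). Mir26a-1 stood at -0.15, Mir150, which represses Myb in lymphocytes, at -0.09, Mir221 at -0.08, Mir96 at -0.05, Mir31 at -0.01 and Mir10b at 0.01. The limma adjusted p of these last 6 was 0.432 or higher. With Mir128-1 and Mir128-2 added, these families and clusters held 63 precursors, of which 44 had a negative difference; the median was -0.035 and Mir128-2 was the only one called. The other 233 precursors had a median of -0.028, with 5 called lower. Of all precursors 2.03% were called, so these counts are no result about the families.

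**Figure D2:**
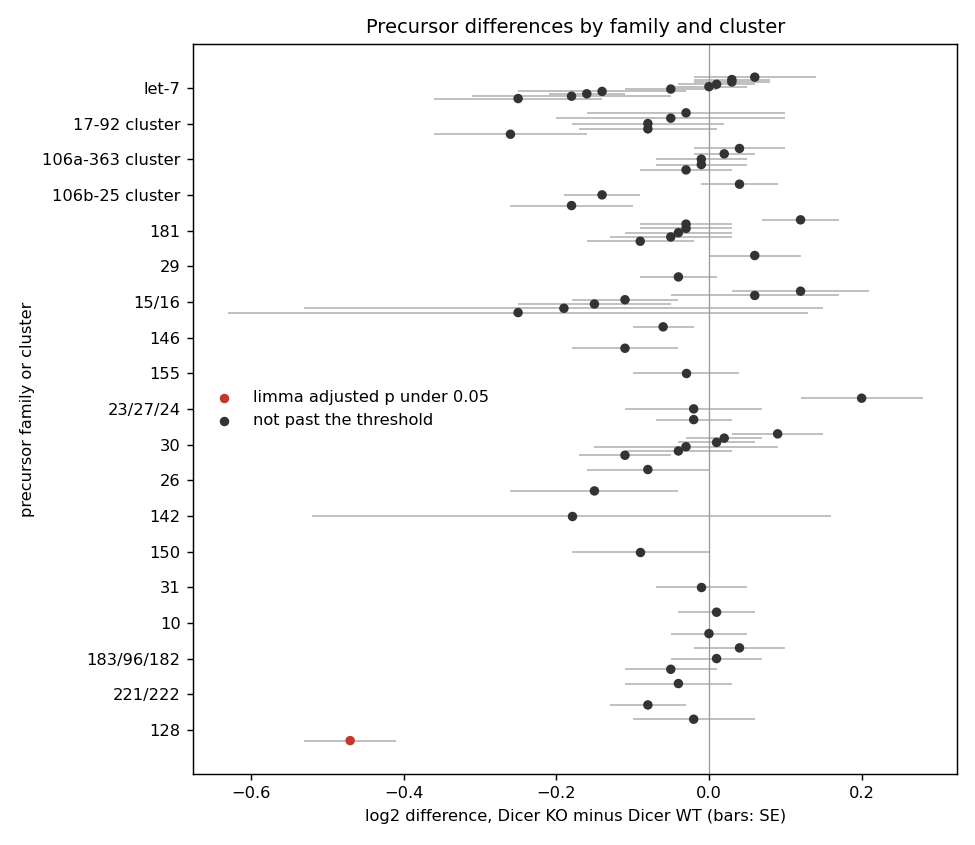
Log2 difference between Dicer KO and Dicer WT (horizontal axis, with SE bars) of each measured precursor of 19 families or clusters (rows down the page). Mir128-2, at -0.47, is the only precursor past the adjusted p threshold (red), and the 5 members of the 17-92 cluster lie left of 0 with all arrays in, of which 4 turn positive without Dicer WT 1.

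Several lymphocyte clusters varied more between samples of 1 genotype than between genotypes. This was not particular to them: over all precursors the median absolute difference was 0.052, against a median SD of 0.056 within Dicer KO and 0.063 within Dicer WT. The 15/16 family, which restrains Bcl2 and the cell cycle, comes from separate loci. Mir15b read 0.09, -0.09 and -0.33 in Dicer KO, against 0.86, 0.36 and -0.81 in Dicer WT. Its run partner Mir16-2 read 0.08, -0.08 and -0.51 in Dicer KO, against 0.61, 0.24 and -0.80 in Dicer WT. Both precursors were highest on Dicer WT 1 and lowest on Dicer WT 3, and the differences between genotypes were -0.25 ± 0.38 and -0.19 ± 0.34. Smc4, the condensin subunit gene in whose intron this pair is known to lie, read 0.39, -0.39 and -0.64 in Dicer KO, against 0.45, 0.48 and -0.64 in Dicer WT (-0.31 ± 0.36, limma adjusted p = 0.725). It was looked up after the values of Mir15b had been seen. Mir15a and Mir16-1, inside Dleu2 on chromosome 14, stood at 0.06 ± 0.11 and -0.11 ± 0.07. The family's other members, Mir195a at 0.12 and Mir497 at -0.15, did not have their highest value on Dicer WT 1.

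Mir142, a microRNA gene of blood cells, had a wide spread too. It read -0.21, 0.02 and 0.21 in Dicer KO, against 1.04, -0.02 and -0.45 in Dicer WT. Its difference was -0.18 ± 0.34 (limma adjusted p = 0.85), and without Dicer WT 1 it turned to 0.24. All 5 members of the 17-92 cluster also had their highest value on Dicer WT 1, from 0.24 (Mir19a) to 0.47 (Mir18). The left-out row that names both Mir92-1 and Mir17hg read -0.30, -0.03 and 0.03 in Dicer KO, against 0.51, 0.27 and -0.33 in Dicer WT (-0.25 ± 0.21, limma adjusted p = 0.581). The host transcript Mir17hg itself read 0.01, -0.06 and 0.21 in Dicer KO, against -0.01, -0.10 and 0.08 in Dicer WT, and so did not share the high value on Dicer WT 1. What set Dicer WT 1 and Dicer WT 3 apart at these loci was not tested.

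**Figure D3:**
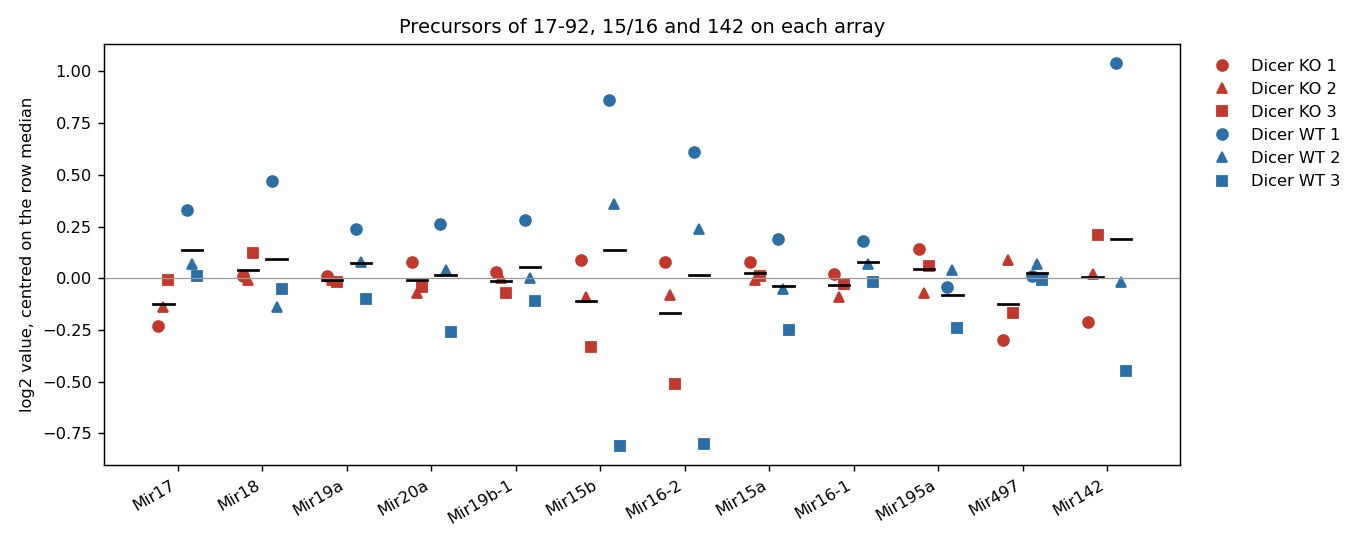
Row-centred log2 value (vertical axis) of the 17-92, 15/16 and Mir142 precursors on each Dicer KO (red) and Dicer WT (blue) array; black bars are group means. Dicer WT 1 is the highest array for each precursor shown except Mir195a and Mir497, and Mir15b and Mir16-2 span from 0.86 and 0.61 on Dicer WT 1 to -0.81 and -0.80 on Dicer WT 3.

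Genomic neighbours were compared next, since precursors of 1 primary transcript could move as a unit. Measured precursors on the same strand with gaps under 10 kb to the next precursor in RefSeq formed 42 runs, which held 139 precursors. In 20 runs every member lay on 1 side of 0, 16 of them negative and 4 positive, and 29 of the 42 runs had just 2 measured members. Of all precursors, 68.9% had a negative difference, so short runs can lie on 1 side of 0 without moving as a unit. The count of 20 was not tested against that share and is no result about runs. Runs held 1 of the 6 calls, Mir134, and the other 157 precursors held 5, where 2.03% of all precursors were called. Those 157 include 25 without a strand, which could not be placed in a run, and the split of the calls was not tested. The imprinted microRNA region of chromosome 12, which is expressed from the maternal chromosome, supplied 3 runs with 40 members, of which 33 had a negative difference (median -0.037). Mir134 stood at -0.31 there, but the members next to it on the chromosome were Mir382 at -0.01, Mir668 at -0.16 and Mir485 at -0.08, none of them past the test. The run Mir99b to Mir125a had 3 members, all negative, with a median of -0.175 and a smallest adjusted p of 0.304 by limma.

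Loci that make the same mature microRNA were set beside each other. RefSeq gave an identical mature sequence to 24 pairs of measured loci, drawn from 45 precursors. Loci whose mature sequence was missing here could not enter a pair. The median gap between the differences of a pair was 0.09 on the log2 scale, and 3 pairs exceeded 0.25. These were Mir128-1 (-0.02) with Mir128-2 (-0.47), Mir194-1 (0.28) with Mir194-2 (-0.13), and Mir7-1 (0.36) with Mir7-2 (0.04). The within-array difference did not overlap between genotypes for 6 of the 24 pairs, these 3 among them, while the arrays of 26.2% of all genes did not overlap. An exact two-sided permutation test over the arrays gave p = 0.1 for each of the 6, the smallest that 3 against 3 allows. After Benjamini-Hochberg adjustment over the 24 pairs it was 0.4.

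Mir128-1 and Mir128-2 share the whole of miR-128-3p and differ around it, as the RefSeq hairpins show (both mature arms in capitals).
Mir128-2: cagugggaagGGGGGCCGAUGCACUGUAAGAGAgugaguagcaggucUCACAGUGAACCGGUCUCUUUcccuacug
Mir128-1: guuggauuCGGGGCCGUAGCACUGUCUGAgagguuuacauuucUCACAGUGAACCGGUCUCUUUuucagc
Mir128-1 read -0.02, 0.05 and -0.12 in Dicer KO, against 0.02, 0.11 and -0.16 in Dicer WT, and these arrays overlapped. The 76-base hairpin of Mir128-2 has 56.6% GC, and the 70-base hairpin of Mir128-1 has 50% GC.

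The seed AUUGCAC of miR-92b-3p is carried by 6 measured precursors, of which Mir92-2 and Mir363 lie in 1 run on the X chromosome.
miR-92b-3p: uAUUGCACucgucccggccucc
miR-92a-3p: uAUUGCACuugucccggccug
miR-25-3p: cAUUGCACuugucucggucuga
miR-363-3p: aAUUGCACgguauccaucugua
miR-32-5p: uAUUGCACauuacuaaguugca
The differences were -0.27 for Mir92b, -0.14 for Mir25, -0.03 for Mir92-2, -0.01 for Mir363 and Mir367, and 0.00 for Mir32. Mir92b was called and the other precursors of this seed were not.

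Hairpin base composition went with the signed difference, which was lower at higher GC. RefSeq gave a hairpin for 258 precursors, 61 to 112 bases long and 28.4% to 69.2% GC (median 47.3%). Across these precursors the difference correlated with hairpin GC at Pearson r = -0.34 and Spearman rho = -0.35, as a description over precursors that share the same 6 arrays. The 36 hairpins under 40% GC had a median difference of -0.004, with 19 negative, and this median turned positive under several alternatives. The 115 hairpins at 40% to 50% GC had a median of -0.027 (-0.013 without Dicer KO 2, and -0.002 with arrays centred on the precursors), and the 81 at 50% to 60% had -0.052. The 26 hairpins at 60% GC or more had a median of -0.145, with 24 negative (92.3%), where 68.9% of all precursors were negative. They included Mir149, Mir692-1, Mir134 and Mir92b among the 6 calls, where 2.03% of all precursors and 8.73% of all genes were called. The other 2 calls, Mir128-2 and Mir688, were in the class from 50% to 60%. On the arrays, the class at 60% or more had medians of -0.10, -0.11 and -0.00 in Dicer KO, against 0.08, 0.04 and 0.07 in Dicer WT, so Dicer KO 3 stood nearer to 0 than the other Dicer KO arrays. Hairpin length showed rho = -0.04. The classes were set after the data had been seen, and the part of base composition in the precursor calls was not tested.

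**Figure D4:**
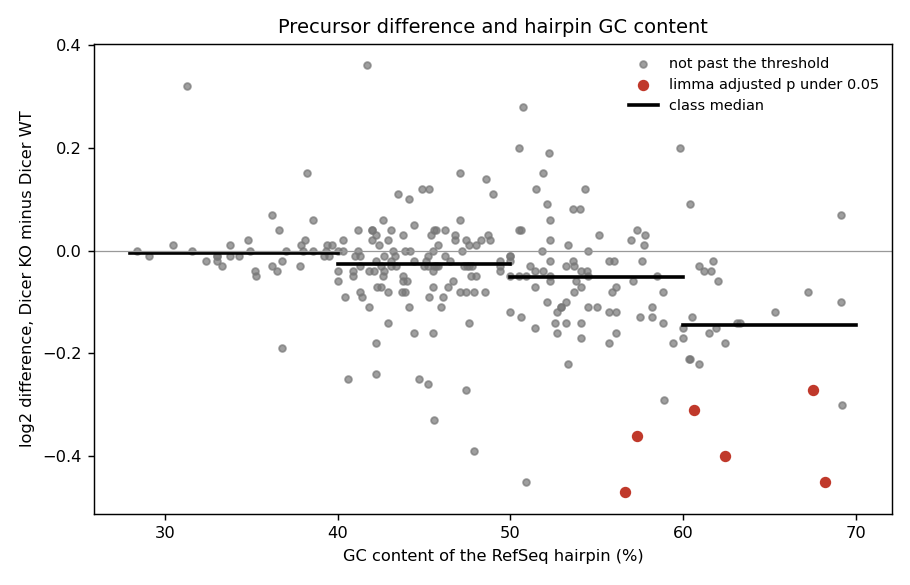
Log2 difference between Dicer KO and Dicer WT (vertical axis) against the GC content of the RefSeq hairpin in percent (horizontal axis); each point is 1 of 258 precursors and black lines are class medians. The 6 called precursors (red) lie above 50% GC, and the class medians run from -0.004 under 40% GC to -0.145 at 60% GC or more. Of all precursors 2.03% were called, and the classes were set after the data had been seen.

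None of the 8 precursors inside host genes that passed the test passed it themselves. With 2.03% of all precursors called, so small a set is near that share, and the count is no result about hosts and their precursors. On the same strand, 121 precursors lay inside another gene, and for 91 of them that host, 1 of 74, was measured. By limma, 6 hosts were higher and 1 was lower in Dicer KO, or 9.46% of the 74, near the 8.73% of all genes. The 7 precursors inside the 6 higher hosts had a median difference of -0.04, with 2 positive. Pde2a, a cyclic nucleotide phosphodiesterase, read 0.85, 0.65 and 0.58 in Dicer KO, against -0.82, -0.66 and -0.58 in Dicer WT (1.38 ± 0.09, SE, limma adjusted p = 0.00074). Mir139 inside it read -0.15, -0.14 and 0.01 in Dicer KO, against 0.00, 0.12 and -0.00 in Dicer WT (-0.14 ± 0.07, limma adjusted p = 0.304). The host was thus higher on all Dicer KO arrays while the precursor was not.

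The other higher hosts were Lpp, an adhesion-site protein (0.89, with Mir28a at 0.05), Atp5b, an ATP synthase subunit (0.56, with Mir677 at -0.27), Hnrnpk, an RNA-binding protein (0.52, with Mir7-1 at 0.36), Nfyc, a subunit of the CCAAT-binding factor (0.34, with Mir30c-1 at -0.04 and Mir30e at -0.03), and Sf3a3, a splicing factor (0.31, with Mir697 at -0.07). Srebf2, the transcription factor of cholesterol synthesis, was lower (-0.54 ± 0.05, limma adjusted p = 0.00165), and Mir33 inside it stood at -0.03. Among these 7 hosts, Hnrnpk with Mir7-1 was the only pair in which both differences exceeded 0.25 in the same direction. Arpp21, the host of Mir128-2, read 0.01, -0.01 and -0.12 in Dicer KO, against 0.06, 0.04 and -0.09 in Dicer WT (-0.04 ± 0.06, limma adjusted p = 0.8). Over the 74 hosts, the host's difference and the mean of its precursors gave r = 0.10 and rho = 0.05, a description across genes of the same arrays.

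**Figure D5:**
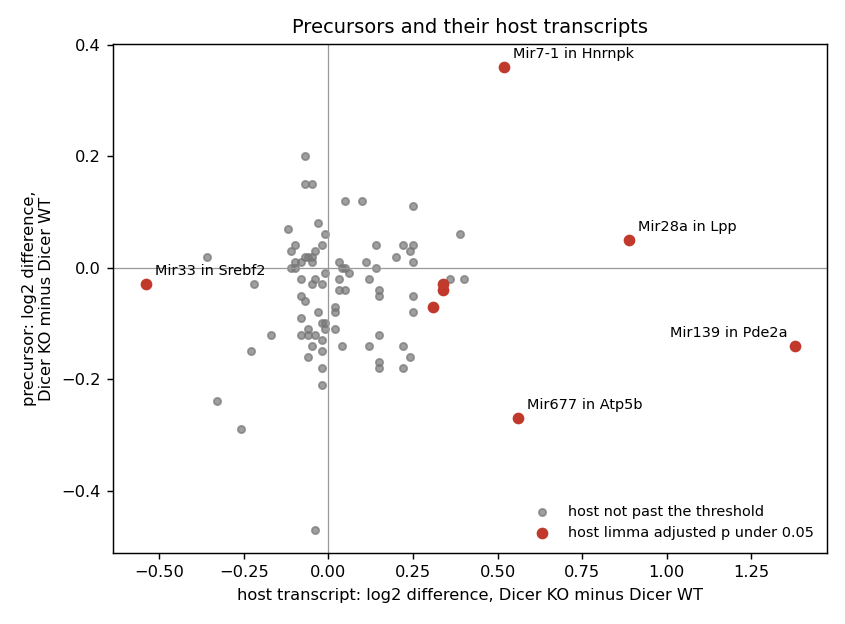
Log2 difference between Dicer KO and Dicer WT of a precursor (vertical axis) against that of the gene it lies in (horizontal axis), 1 point per precursor with a measured host. Hosts past the test are red; Pde2a at 1.38 holds Mir139 at -0.14, and Srebf2 at -0.54 holds Mir33 at -0.03.

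The genes of the microRNA pathway were counted in the same fit. Of the 34 measured genes of biogenesis and silencing on the list, 5 were called higher in Dicer KO and 0 were called lower, where 5.94% of all genes were called higher and 2.79% lower; the list's median difference was 0.116, against -0.011 over all genes. Of the nuclear steps, Drosha was higher (0.43 ± 0.06, limma adjusted p = 0.00646), as was Ncbp1, a subunit of the nuclear cap-binding complex (0.36 ± 0.07, 0.0235). Dgcr8, the partner of Drosha, stood at 0.05 ± 0.06. Of the silencing complex, Ago2, which binds the guide strand and can slice targets, read 0.50, 0.49 and 0.40 in Dicer KO, against -0.41, -0.40 and -0.45 in Dicer WT (0.88 ± 0.05, limma adjusted p = 0.000471). Mov10, an RNA helicase that associates with Argonaute, read 0.58, 0.53 and 0.62 in Dicer KO, against -0.53, -0.64 and -0.58 in Dicer WT (1.16 ± 0.05, limma adjusted p = 0.000273). Tnrc6c, a scaffold of the GW182 family, was higher by 0.31 ± 0.06 (0.0211). The calls of Drosha, Ago2 and Mov10 were kept with any 1 array left out, while those of Ncbp1 and Tnrc6c were not, which left 3 called without Dicer KO 2 or without Dicer WT 1.

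Dicer1 itself read 0.21, -0.02 and -0.09 in Dicer KO, against 0.12, 0.02 and -0.10 in Dicer WT (0.02 ± 0.09, limma adjusted p = 0.949), and the arrays overlapped. The table gives 1 value for the whole gene and the sources used here do not name the deleted part, so this value does not check the deletion.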

How the data were processed

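Sorted CD4+CD62L- T cells gave 3 Dicer KO and 3 Dicer WT arrays, grouped by their labels. The authors deposited 1 table of log values, taken as log2 although no source used here states the base; per the submitters' processing notes MAS5 was used, with no version or role. Tests on the values showed each row centred on its median (largest absolute row median 5e-07; 0 missing). A coarse level class read from the stored digits held 6.04% of precursor rows and 17.6% of all rows in its higher class.

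Rows were named through the platform annotation and RefSeq (21689 of 21780 rows with 1 symbol). Rows of a gene were averaged, and Dicer KO was compared with Dicer WT by limma 3.58.1 (R 4.3.3; lmFit, eBayes) with Benjamini-Hochberg adjustment over 19935 genes, tested on simulated data. No filter was applied. The number of arrays limits the precision. Named are precursors past an adjusted p of 0.05, the 5 largest differences per direction among those whose arrays do not overlap, family members with the lowest p, pathway calls, hosts and neighbours. Members and lists were chosen with earlier results of these data known. Alternatives were row-by-row tests, array weights, other scalings, a replicate block, rows with several symbols, and leaving out each array. Same-numbered Dicer KO and Dicer WT arrays correlated at 0.27, -0.08 and 0.30 in their deviations, and differently numbered ones between -0.37 and 0.23. These values do not settle whether the numbers are pairs, and the sample titles state no pairing. The main fit left the numbers out, and the replicate block, which takes them in, called 10 precursors against 6.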

Additional observations from a re-analysis of the deposited data

How the results depend on the processing

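The count of precursors called, 6 in all, was 12 with array weights, 10 with the replicate block and 11 when rows naming several symbols were added. It lay between 1 and 6 with 1 array left out, where all genes gave 729 to 1597 calls against 1741 and the pathway list gave 3 to 6. The pathway list gave 10 calls with array weights and 10 with the replicate block, against 5. The median difference of the precursors kept its sign with 1 array left out (-0.034 to -0.025). Of 403 values of the 31 named precursors under 13 alternatives, 20 lost and 12 gained a call, 8 changed sign, and the rest kept both. None of the 78 values of the called precursors changed sign. Mir194-1 gained a call in 7 of them: row by row (0.0492), array weights (0.0323), all-row centring (0.0453), quantile normalization (0.0447), precursor centring (0.0336), the replicate block (0.047) and without Dicer WT 2 (0.0355). Mir7-1 gained one under quantile normalization (0.0428), and Mir134 lost its call there (0.0538). With 1 array left out, Mir106a ran from -0.01 to 0.08, Mir142 from -0.50 to 0.24 (positive without Dicer WT 1), Mir155 from -0.06 to 0.03 and Mir31 from -0.06 to 0.02, and so changed sign, as did Mir10b at -0.00 with array weights and Mir31 at 0.01 after centring on the precursors. Causes were not tested. The median of hairpins at 60% GC or more, an alternative chosen after seeing the data, stayed negative, and that at 40% to 50% reached -0.002 after centring on the precursors. The median under 40% turned positive after centring on the precursors (0.021), with all-row centring (0.003) and with quantile normalization (0.005). It was also positive without Dicer KO 2 (0.003), Dicer WT 1 (0.002) or Dicer WT 2 (0.003).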

Other observations

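The rows that name a precursor among several symbols formed 32 groups, of which 5 were lower and 0 higher in Dicer KO by limma with adjustment over all genes and these groups. The row group of Rpl37a, a large-subunit ribosomal protein, with Mir682 differed by -0.96 ± 0.12 (limma adjusted p = 0.00496), and that of Ftl1, the ferritin light chain, with Mir692-2 and Mir692-3 by -0.60 ± 0.07 (0.00362). Mir692-1, which carries the same microRNA name, was called at -0.40; whether its row shares sequence with these was not tested. The rows of Mir351 with C430049B03Rik (-0.45), Mir675 with Supt6 (-0.33) and Mir344-2 with Mir344 (-0.28) were the remaining calls. The second cluster of the 23/27/24 family lies on rows shared with Aopep, where Mir23b stood at 0.30 ± 0.14, Mir27b at 0.26 ± 0.17 and Mir24-1 at 0.15 ± 0.06, none past the test.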
